A study of Caenorhabditis elegans with 4 samples.

Results

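The microRNA genes of Caenorhabditis elegans were examined in a ChIP-seq experiment on CEY-2, a member of the Y-box family of nucleic acid binding proteins. All 261 genes to which the Ensembl annotation of assembly WBcel235 gives the biotype miRNA were taken, out of 46926 annotated genes. No gene was chosen by its signal. The worms were L4 hermaphrodites of strain OP358, genotype unc-119(tm4063) III; wgIs358, harvested whole. Their integrated transgene wgIs358 carries CEY-2 with GFP and FLAG at its C-terminus, and the immunoprecipitation used anti-GFP, although the antibody field of the labels reads cey-2. The chromatin was sheared by sonication. The promoter that drives it is not given in the labels. All 4 libraries carried this genotype. They came from 3 biological replicates, and the 2 technical libraries of replicate 2 share 1 alignment file and 1 peak list. No library from other worms or from control chromatin was analysed here.

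For each gene the best peak was the one with the highest signal value among those with a summit within 1000 bp of the annotated gene start. The search covered 5 peak lists: the 611 peaks that passed the authors' irreproducible discovery rate threshold (the IDR list), the 25484 peaks of the pooled replicates, and the 30000, 30000 and 21628 peaks of replicates 1, 2 and 3. The signal value is the score that the authors' peak caller gave a peak, and it was read only within 1 list. A rank of 1 is the highest signal of a list. The full lists keep many background regions as input for the IDR step. Read counts were not used here, so the depth behind a peak is unknown.

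MicroRNAs are short RNAs that guide Argonaute proteins to partly complementary messenger RNAs. They are cut from a hairpin within a longer primary transcript, by Drosha in the nucleus and by Dicer in the cytoplasm. Pairing rests mainly on the seed near the 5′ end, and microRNAs with the same seed are grouped into families. In C. elegans the lin-4 and let-7 microRNAs time larval development. For most of these genes the annotation covers only the hairpin: the median gene length was 95 bp, and 3 genes were longer than 200 bp, among them let-7 with 1732 bp. A gene start is therefore usually the end of a hairpin and not a transcription start.

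The genes were split by position. A gene was clustered when its start lay within 10000 bp of another microRNA gene's start on the same strand, which held for 81 genes in 29 clusters. Of the others, 73 lay in introns of protein-coding genes, 11 overlapped a coding gene's exon and 96 were intergenic. Intergenic here means outside protein-coding genes, and overlap with noncoding genes was not examined. Of the intronic genes, 55 lay on the strand of their host and 18 on the opposite strand. Counting a cluster once, there were 209 loci.

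The sequences of the mir-51 family are shown here because 4 of its 6 members had a peak on the IDR list. RefSeq mature sequences were read from the genome of the same assembly, and 260 of the 261 genes matched a RefSeq entry by WormBase identifier. Capitals mark the seed, bases 2 to 8. The 6 members share it.
mir-51: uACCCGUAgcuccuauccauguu
mir-52: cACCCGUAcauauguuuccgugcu
mir-53: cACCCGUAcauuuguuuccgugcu
mir-54: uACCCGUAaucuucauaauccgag
mir-55: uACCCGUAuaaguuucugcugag
mir-56: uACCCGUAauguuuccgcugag

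The mature sequences of mir-4929, which had the highest peak of the microRNA genes, and of mir-238, the next after mir-52, carry other seeds. The seed of mir-238 is shared with mir-239a and mir-239b, which are shown because all 3 genes ranked within the highest 2000 pooled peaks.
mir-4929: aAUGCACCacaucuuacgcuca
mir-238: uUUGUACUccgaugccauucaga
mir-239a: uUUGUACUacacauagguacugg
mir-239b: uUUGUACUacacaaaaguacug

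A total of 12 of 261 microRNA genes had a peak of the IDR list within 1000 bp of their start. This was 4.6% (exact Clopper-Pearson 95% interval 2.4 to 7.89%, counting error only). Among all 31563 genes other than piRNA genes the share was 1.87%, among protein-coding genes 1.51%, and among noncoding genes other than microRNA genes, piRNA genes and pseudogenes 2.89%. The share of microRNA genes was thus 2.46 times that of all genes and 1.59 times that of the other noncoding genes. The 12 genes used only 9 summits, since mir-54, mir-55, mir-56 and mir-55b lay around 1 summit, and genes that share a summit are not independent. When a summit was given only to its nearest gene start, 4 microRNA genes remained: mir-4929, mir-52, mir-238 and mir-5551. This was 1.53% of microRNA genes (exact 95% interval 0.419 to 3.88%), beside 1.13% of all genes under the same rule, a share that lies within the interval. The ratio to all genes given above thus includes microRNA genes that are not the nearest to their summit, 8 of the 12.

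By class, the counts were too small to rank. The IDR list held a peak for 4 of 81 clustered genes (4.94%), for 4 of 73 intronic genes (5.48%), for 4 of 96 intergenic genes (4.17%) and for 0 of the 11 genes that overlap a coding exon. The clustered genes were mir-238 and the trio mir-54, mir-55 and mir-56, so that 2 of 29 clusters were reached. The intronic genes were mir-4929, mir-253, mir-55b and mir-8208, and the intergenic genes mir-52, mir-269, mir-79 and mir-5551. In the lists of single replicates the 611 highest peaks reached 5 clustered, 1 intronic and 3 intergenic genes in replicate 1. They reached 4, 2 and 6 in replicate 2, and 1, 3 and 2 in replicate 3. An exon-overlapping gene was reached in replicate 3 alone, 1 of 11. No class had the highest share in all 3 replicates, and the classes were compared without a test.

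**Figure D1:**
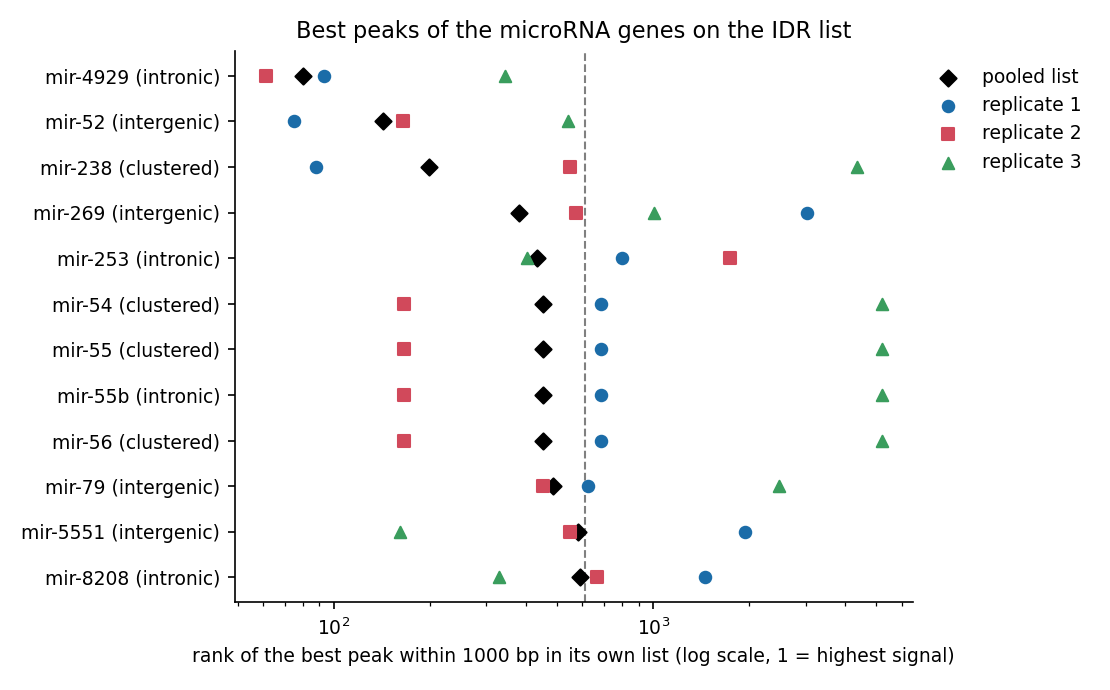
Rank of the best peak within 1000 bp of each of the 12 microRNA gene starts that had a peak on the IDR list, in the pooled list and in the list of each replicate, on a log axis with high peaks on the left. The dashed line marks rank 611, the length of the IDR list; mir-4929 and mir-52 lie left of it in all 4 lists.

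The highest peak belonged to mir-4929, an intronic microRNA gene on the same strand as its host E01G4.3 (WBcel235 chromosome II, 13461755 to 13461864, minus strand). Its peak at 13462076 to 13462465 ranked 80 in the IDR list with a signal of 69.4. The best peak of the gene had signals of 26.3, 38.9 and 11.7 in replicates 1, 2 and 3, which were ranks 93, 61 and 343. In replicates 1 and 2 the summit lay at -402 and -293 bp from the start (negative is upstream), on the same side as the IDR summit at -407 bp, whereas in replicate 3 the best summit was at 884 bp, downstream. A replicate 3 summit of rank 440 and signal 10.8 lay within 200 bp of the IDR summit, so the same place was also marked there. The summit was inside an intron of E01G4.3, and the nearest coding gene start, of pqn-27, was at -1629 bp.

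The mir-52 gene, a member of the mir-51 family, lies outside protein-coding genes on chromosome IV (14034008 to 14034107, plus strand). Its IDR peak spanned 14033813 to 14034202, ranked 142 and had a signal of 58.5. The summit fell on the annotated start, at 0 bp. Signals were 28.1, 28.4 and 10 in replicates 1, 2 and 3, at ranks 75, 164 and 541 and at offsets of -17, -106 and 28 bp. With mir-4929 it was 1 of 2 microRNA genes (0.766%) among the highest 611 peaks of all 3 replicates, a status reached by 0.516% of all genes. The nearest coding gene start, of Y37A1B.7, was 9772 bp away, while 6 noncoding RNA genes began within 1000 bp of the summit.

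The mir-238 gene shares a cluster with mir-80 and mir-90 on chromosome III (8867328 to 8867425, minus strand). Its IDR peak at 8867387 to 8867776 ranked 199 with a signal of 52.2, and the summit lay upstream of the hairpin, at -157 bp. Signals of 27, 19.6 and 4.91 in replicates 1, 2 and 3 gave ranks of 88, 550 and 4361. Replicates 1 and 2 placed it among their highest 611 peaks and replicate 3 did not. The summit positions in the 3 replicates were nevertheless close together, at -157, -155 and -144 bp. No coding gene started within 1000 bp, the nearest being K01F9.2 at 9546 bp.

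The DNA at these summits is shown as 201 bases centred on each summit, read 5′ to 3′ on the plus strand of WBcel235. The words searched, on both strands, were GAGAGA, the E-box word CACGTG and the GATA factor word TGATAA, and capitals mark their matches. These words were known from an earlier report on the same peak lists. In the mir-52 window, which held none of these words, capitals mark the DNA of the mature microRNA printed above. The mir-54 window is shown because 4 genes share its summit, and the mir-253 window because it held the most GAGAGA matches, 4 with overlaps counted.
mir-4929, chrII:13462171-13462371: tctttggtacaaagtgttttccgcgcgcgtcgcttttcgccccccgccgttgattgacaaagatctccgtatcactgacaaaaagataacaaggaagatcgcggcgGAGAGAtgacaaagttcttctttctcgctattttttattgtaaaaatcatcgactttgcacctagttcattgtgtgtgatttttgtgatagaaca
mir-52, chrIV:14033908-14034108: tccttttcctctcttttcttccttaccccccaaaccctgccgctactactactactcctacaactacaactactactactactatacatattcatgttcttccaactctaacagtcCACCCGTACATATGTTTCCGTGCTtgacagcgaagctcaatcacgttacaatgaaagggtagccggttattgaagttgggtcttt
mir-238, chrIII:8867482-8867682: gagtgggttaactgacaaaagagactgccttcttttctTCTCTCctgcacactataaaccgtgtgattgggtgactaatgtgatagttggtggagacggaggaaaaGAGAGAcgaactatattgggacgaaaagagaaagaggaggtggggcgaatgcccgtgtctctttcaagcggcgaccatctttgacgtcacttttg
mir-253, chrV:5780850-5781050: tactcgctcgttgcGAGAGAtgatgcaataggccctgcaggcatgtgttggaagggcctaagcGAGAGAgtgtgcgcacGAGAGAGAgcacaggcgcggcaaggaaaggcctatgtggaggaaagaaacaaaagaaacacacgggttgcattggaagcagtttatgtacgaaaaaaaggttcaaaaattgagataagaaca
mir-54, chrX:13145349-13145549: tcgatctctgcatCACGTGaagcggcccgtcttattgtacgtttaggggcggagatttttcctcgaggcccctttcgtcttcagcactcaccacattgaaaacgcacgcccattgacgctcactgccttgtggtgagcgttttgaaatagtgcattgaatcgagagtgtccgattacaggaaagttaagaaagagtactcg

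GAGAGA lay within 100 bp of 4 of the 9 summits, those of mir-4929, mir-238, mir-253 and mir-5551. The share of 44.4% stands beside 42.8% of all 586 nuclear IDR summits and 15.9% of nuclear gene starts of the same window length, piRNA genes left out. CACGTG lay at 2 of 9, the mir-54 and mir-79 summits (22.2% against 19.8% of all nuclear IDR summits and 3.82% of gene starts). TGATAA lay at 2 of 9, the mir-79 and mir-8208 summits (22.2% against 41.3% and 18.7%). In all, 7 of the 9 windows held at least 1 word, and the mir-52 and mir-269 windows held none. Around the starts of the 261 microRNA genes themselves the words were found in 12.3%, 5.75% and 16.5%. At the 149 pooled summits near microRNA genes that are outside the IDR list, GAGAGA occurred in 23.5%, against 14.3% of all such nuclear summits, CACGTG in 2.68% against 3.94% and TGATAA in 28.9% against 23.7%. A match is a description of the letters in a window, and no difference was tested. The words came from an earlier report on these lists. Their shares at IDR summits beside gene starts are therefore not independent of that choice.

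The mir-54, mir-55 and mir-56 genes form a cluster on chromosome X (minus strand) within F09A5.3, a coding gene on the opposite strand. Their starts lie at 13145094, 13144924 and 13144787. The shared IDR peak at 13145254 to 13145643 ranked 452 with a signal of 39.8, and its summit lay at -355 bp from mir-54, the gene at the 5′ end of the trio. From mir-55 and mir-56 it lay at -525 and -662 bp. The gene mir-55b, annotated on the plus strand across mir-55, had the same summit at 619 bp downstream of its start. Signals at the 4 genes were 14.9, 28.4 and 4.59 in replicates 1, 2 and 3, at ranks 685, 166 and 5197. Replicate 2 alone had the peak among its highest 611. The best replicate 3 summit lay at -41 bp from mir-54, and no replicate 3 summit came within 200 bp of the IDR summit, which made this the exception among the 9. The nearest gene start of any kind was that of the noncoding RNA gene F09A5.11, at -178 bp.

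Among the remaining intronic genes, mir-253 (chromosome V, 5780510 to 5780616, minus strand) had its IDR summit at -334 bp. The same summit was at -28 bp from the start of its host gene F44E7.5. The peak ranked 432 with a signal of 40.3, and the best peaks of replicates 1, 2 and 3 had signals of 14.3, 12.4 and 11.1 at ranks 798, 1736 and 402. The mir-8208 gene (chromosome IV, 10856119 to 10856180, plus strand) lies on the strand opposite to its host T11G6.2. Its IDR peak, of rank 589 and signal 36.4, lay at -736 bp, the farthest among the 12 genes, and at -146 bp from the start of another coding gene, T11G6.3. Its signals were 12.3, 18.3 and 11.9 in replicates 1, 2 and 3, at ranks 1450, 667 and 328. In replicate 1 the best summit was at -502 bp, and the one within 200 bp of the IDR summit ranked 4163 with a signal of 9.2. Each of these 2 genes was among the highest 611 peaks only in replicate 3.

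The remaining intergenic genes were mir-79, mir-5551 and mir-269. The mir-79 gene (chromosome I, 9332946 to 9333043, plus strand) had an IDR summit at -290 bp with a signal of 38.8 at rank 486. The best peaks of replicates 1, 2 and 3 had signals of 15.3, 20.7 and 6 at ranks 626, 450 and 2479, and the best replicate 3 summit was downstream, at 372 bp. The replicate 3 summit within 200 bp of the IDR summit ranked 4798, with a signal of 4.74. The IDR summit lay at -7 bp from the start of the noncoding RNA gene C12C8.8.

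The mir-5551 gene (chromosome IV, 9757508 to 9757616, plus strand) had an IDR summit at -217 bp, of rank 579 and signal 36.7. Its signals were 11.4, 19.6 and 14.6 in replicates 1, 2 and 3, at ranks 1936, 549 and 161. Here replicate 3 ranked the peak highest and replicate 1 lowest, the reverse of mir-238. The gene lies between the summit and nhr-97, a nuclear hormone receptor gene on the same strand, from whose start the summit was at -350 bp. The mir-269 gene (chromosome IV, 273900 to 273993, plus strand) had its IDR summit at 569 bp, downstream, with a signal of 42.2 at rank 380. That summit was in an exon of sma-10, 49 bp from the start of this gene of body size signalling. The signals of 10.1, 19.3 and 8.11 in replicates 1, 2 and 3 were at ranks 3022, 574 and 1003.

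Of the 9 summits, 4 had a coding gene start within 1000 bp, so the protein-coding gene cannot be told apart from the microRNA gene by position. Among the 75 microRNA genes with a coding start within 1000 bp of their own, 4 had an IDR peak (5.33%), and among the 186 without one, 8 had (4.3%). Most of these peaks were in the lower part of the IDR list: 9 of the 12 genes were below the list's median signal of 45.7, with a median of 39.8 over the 12 genes and 44.8 over all genes with an IDR peak. The lowest inside the list was mir-8208, with a signal of 36.4, and the highest outside was mir-243, with a pooled signal of 32 at rank 818. At the edge of the window, the nearest genes outside were mir-60, an intestinal microRNA gene, with an IDR summit at 1253 bp, mir-2221 at -1271 bp and mir-71, which affects lifespan, at -1382 bp. In all 6 genes had their nearest IDR summit between 1000 and 2000 bp away, let-7 among them at -1831 bp.

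**Figure D2:**
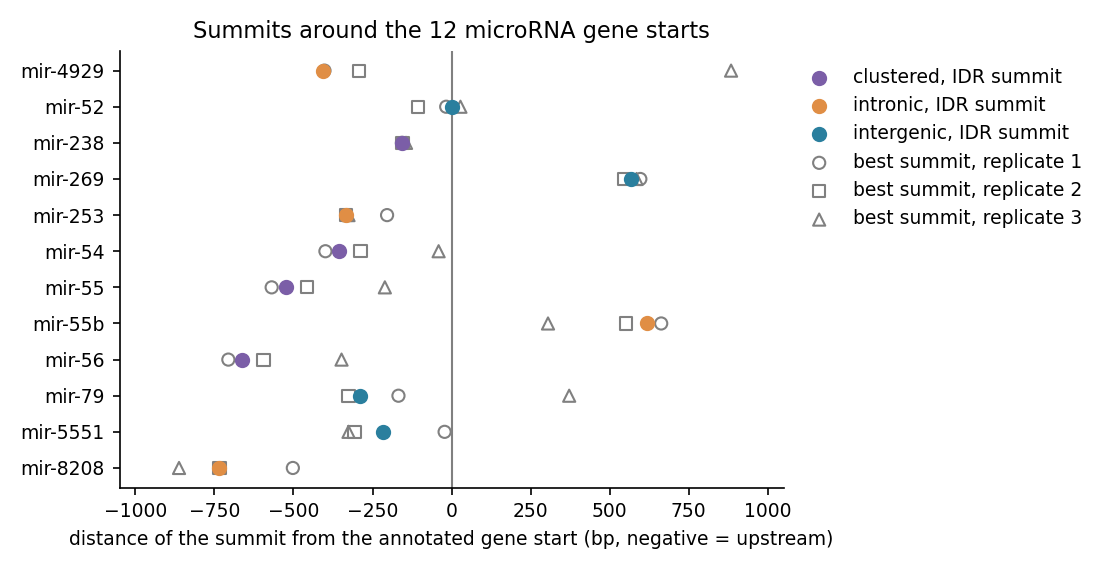
Distance of peak summits from the annotated start of each of the 12 microRNA genes, in bp along the gene's own strand with upstream on the left. Filled points are IDR summits coloured by class, and open symbols are the best summits of replicates 1 to 3. For 9 of the 12 genes the IDR summit lies upstream. The genes mir-54, mir-55, mir-56 and mir-55b share 1 summit.

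Upstream IDR summits were found for 9 of the 261 microRNA genes (3.45%), at 7 loci. Among all genes but piRNA genes 1.19% had their best IDR summit upstream. The exceptions were mir-52, at 0 bp, and mir-269 and mir-55b, downstream. As a share of the genes with an IDR peak, upstream summits made up 75% of those at microRNA genes, 64% of those at all genes and 81.1% of those at protein-coding genes. The median signed offset was -312 bp over the 12 microRNA genes, against -142 bp at all genes and -230 bp at protein-coding genes. The summit shared by mir-54, mir-55, mir-56 and mir-55b enters these values once for each gene, so they do not rest on independent summits.

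In the pooled list 130 of 261 microRNA genes had a peak within 1000 bp (49.8%), beside 44.5% of all genes. The peaks were ranked higher, with a median rank of 7468 at microRNA genes and 9975 at all genes with a peak. Among the highest 2000 pooled peaks the list held 31 microRNA genes (11.9%, exact 95% interval 8.21 to 16.4%) at 27 loci, beside 5.86% of all genes. By class these were 8 clustered (9.88%), 8 intronic (11%), 14 intergenic (14.6%) and 1 exon-overlapping gene. The 130 genes drew on 159 pooled summits, and 52 genes had more than 1.

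Around microRNA gene starts the pooled summits did not pile up at the start. The 1000 bp upstream held 38.3 summits per 100 microRNA genes and the 1000 bp downstream 36.4. At protein-coding genes the figures were 36.5 upstream and 23.7 downstream. Between 1000 and 2000 bp out there were 32.6 upstream and 35.2 downstream at microRNA genes, against 26.5 and 24.6 at protein-coding genes. In the 200 bp just upstream of the start microRNA genes had 6.9 summits per 100 genes and protein-coding genes 10.2. The highest bin of the microRNA genes was the next one, -400 to -200 bp. It held 9.58 per 100 genes, beside 9.01 at protein-coding genes and 7.82 at all genes. Genes of 1 cluster count the same summit more than once, so that these densities are not those of independent sites.

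**Figure D3:**
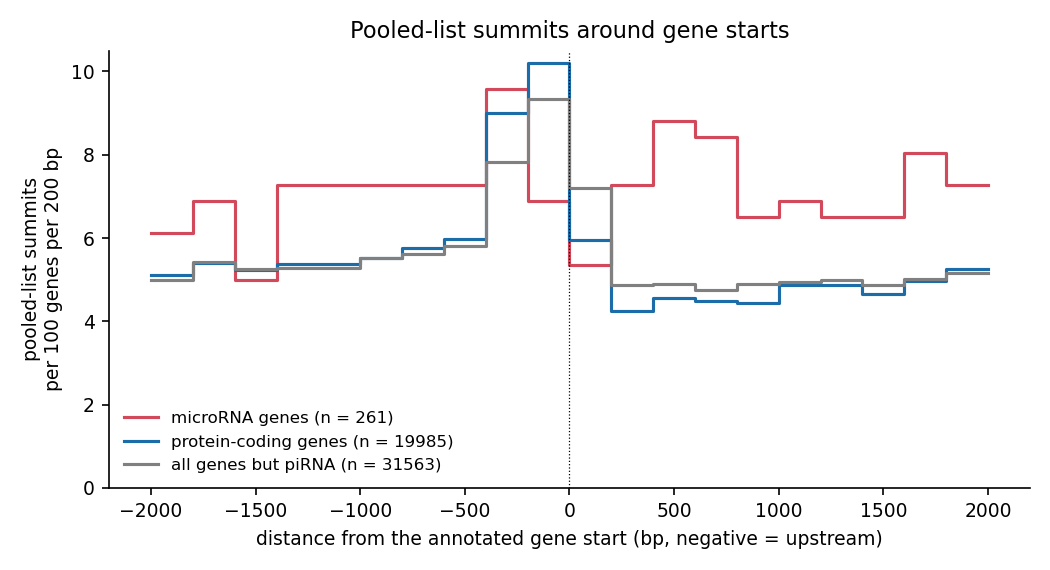
Summits of the pooled list per 100 genes in bins of 200 bp around annotated gene starts, with upstream on the left, for microRNA genes, protein-coding genes and all genes but piRNA genes. Protein-coding genes peak at 10.2 just upstream of the start, where microRNA genes have 6.9. The highest microRNA bin is -400 to -200 bp, at 9.58.

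The lists of single replicates were read in the same way. A peak lay within 1000 bp of 144 genes in replicate 1 (55.2%, beside 48.8% of all genes), of 144 in replicate 2 (55.2%, beside 49.2%) and of 104 in replicate 3 (39.8%, beside 38.9%). Among the highest 611 peaks of each list there were 9 microRNA genes in replicate 1 (3.45%, beside 1.64%), 12 in replicate 2 (4.6%, beside 1.83%) and 7 in replicate 3 (2.68%, beside 2.05%). At least 2 replicates had 4 genes in common (1.53%, beside 1.2%): mir-4929, mir-52, mir-238 and mir-5551. In the full lists 57 genes had a peak in all 3 replicates (21.8%, beside 17% of all genes), 72 in 2, 77 in 1 and 55 in none. All 12 genes of the IDR list were among the 57. The IDR list was derived from these same lists, and any summit in the window counted, so this is not independent support. Of them 2 ranked among the highest 611 in 3 replicates, 2 in 2 replicates and 8 in 1.

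Each replicate also placed genes among its highest 611 that did not reach the IDR list. In replicate 1 these were mir-5549 (signal 17.4, rank 376), mir-229 and mir-64 at 1 summit (17.4, rank 378), mir-239b (16.6, rank 460), and mir-2209a and mir-2209c at 1 summit (15.5, rank 580). In replicate 2 they were mir-8186-1 and mir-8186-2, which overlap on opposite strands (22.2, rank 361). In replicate 3 they were mir-48 (11.7, rank 339), a let-7 family gene, and mir-354 (10.9, rank 417), which overlaps an exon of the ribosomal protein gene rps-20. None of these genes was among the highest 611 of another replicate. Across genes with a peak in both lists, which are not independent, Spearman's rho of the ranks was 0.316 for replicates 1 and 2 (95 microRNA genes), 0.476 for 1 and 3 (72 genes) and 0.466 for 2 and 3 (76 genes). Over all genes it was 0.349, 0.308 and 0.381 for the same pairs, without a test.

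Below the IDR list the highest microRNA genes in the pooled list were mir-243 at rank 818, mir-77 at 930, the mir-8186 pair at 1008, mir-239a at 1118, mir-354 at 1151, mir-5549 at 1174, mir-64 and mir-229 at 1183, and mir-83 at 1237. Of these, mir-243 and mir-5549 ranked within the highest 2000 of every replicate, with ranks of 1977, 733 and 1017 for mir-243 and of 376, 920 and 1462 for mir-5549 in replicates 1, 2 and 3. Together with mir-4929, mir-52, mir-253, mir-5551 and mir-8208 they made up the 7 genes with this property (2.68%, beside 1.3% of all genes). The rule takes the best summit in the window of each replicate, which need not be the same site. For mir-8208 the replicate 1 summit within 200 bp of the IDR summit ranked 4163. The best summits of mir-243 lay at -805, -472 and -455 bp in replicates 1, 2 and 3. The mir-8186 pair lacked the property: its peak ranked 22556, 361 and 18873, high in replicate 2 alone. For mir-77 the ranks were 18071, 703 and 768.

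By family, 4 of the 12 genes with an IDR peak belonged to the mir-51 family, which acts in embryonic development. All 6 members had a pooled peak within 1000 bp, beside 44.5% of all genes. The median rank of the 6 was 452. The 2 without an IDR peak, mir-53 and mir-51, form a cluster on chromosome IV and had pooled ranks of 1370 and 2288, with signals of 26.4 and 21.5. In replicates 1, 2 and 3 the best ranks were 3054, 6169 and 7098 for mir-53 and 3054, 3869 and 5730 for mir-51. The 4 with an IDR peak used 2 summits, those of mir-52 on chromosome IV and of the trio on chromosome X, so the family count rests on 2 sites. Of 16 groups of 3 or more genes that share a seed in either arm, 2 had an IDR member, the mir-51 family and the group of mir-238, mir-239a and mir-239b. For mir-238, mir-239a and mir-239b the pooled ranks were 199, 1118 and 1747, and this was the 1 group of the 16 with every gene within the highest 2000. The families were compared without a test.

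**Figure D4:**
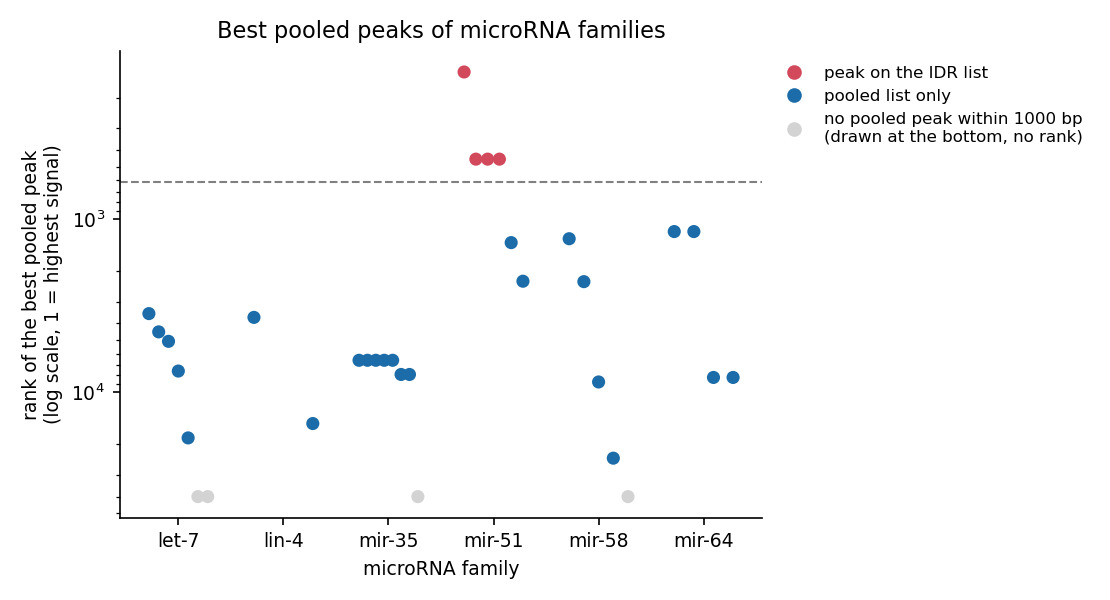
Rank of the best pooled peak within 1000 bp for each gene matched by name in 6 microRNA families, on a log axis with high peaks at the top. Red points have a peak on the IDR list, grey points at the bottom have no pooled peak in the window, and the dashed line marks rank 611; the 4 red points all belong to the mir-51 family.

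The families that time larval development had no gene on the IDR list. Of 7 let-7 family genes, 5 had a pooled peak within 1000 bp, beside 44.5% of all genes. The highest were mir-241 at rank 3518, mir-48 at 4484 and mir-793 at 5084. The let-7 gene itself ranked 7546. Its best peaks in replicates 1, 2 and 3 ranked 23496, 9984 and 9505, with summits at -882, 153 and 247 bp. For mir-48 the best peaks in replicates 1, 2 and 3 ranked 2232, 3370 and 339, with summits at 117, -12 and -475 bp. No pooled summit lay within 1000 bp of mir-794 and mir-795. The lin-4 gene ranked 3699 in the pooled list, with its summit at 682 bp. In replicates 1, 2 and 3 its best peaks had signals of 9.87, 5.76 and 3.17 at ranks 3283, 10665 and 11483. Their summits lay at 687, -563 and -220 bp. The family member mir-237 ranked 15155 in the pooled list.

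Other families fixed by name had no IDR peak either. Their counts of pooled peaks stand beside 44.5% of all genes with one. In the mir-35 family, which is needed in the embryo, 7 of 8 genes had a pooled peak, at ranks of 6540 and 7896. The 7 lie in 1 cluster of hairpins and shared 2 summits. In replicate 1 the best summit for mir-36 to mir-41 had a signal of 15 at rank 680 and that for mir-35 ranked 17488, in replicate 2 the best ranks of the 7 were 24891 and 15317, and replicate 3 had no summit in reach. In the mir-58 family, related to fly bantam, 4 of the 5 genes matched had a pooled peak, led by mir-80 at rank 1301 and mir-58.1 at 2301. The listed name mir-1834 was not matched. The gene mir-58c, which has the seed of mir-58.2 and mir-80, was not listed for the family and had no pooled peak in reach. In the mir-64 family all 4 had one, at rank 1183 for mir-64 and mir-229 and 8215 for mir-65 and mir-66. Of 5 single genes, the stress-related mir-34 ranked 1732, mir-71 ranked 3364 and the neuronal lsy-6 ranked 15090, while the muscle gene mir-1 and the neuronal mir-124 had no peak in reach in any of the 5 lists.

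By chromosome, the IDR list reached 4 of 50 microRNA genes on IV, 4 of 74 on X, and 1 each of 33 on I, 49 on II, 27 on III and 28 on V. This was 8% on IV and 5.41% on X, beside 1.52% and 1.38% of all genes there. It was 3.03% on I, 2.04% on II, 3.7% on III and 3.57% on V, beside 1.66%, 2.05%, 2.06% and 1.89%. The X chromosome thus held the most microRNA genes, and its 4 genes shared 1 summit. In the pooled list the share of microRNA genes with a peak was 27.3% on I and 28.6% on V, beside 44.1% and 41.8% of all genes there. It was 66.7% on III, 56% on IV, 55.1% on II and 54.1% on X, beside 50%, 45.3%, 43.2% and 44.7%. The differences between chromosomes were not tested.

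The proteins of the microRNA pathway are encoded by ordinary coding genes, which were read by the same rule. Of 23 biogenesis and effector genes, 2 had an IDR peak, beside 1.51% of protein-coding genes. Within the highest 2000 pooled peaks there were 4 of the 23, beside 5.86% of all genes. This last share includes noncoding genes, and that of protein-coding genes alone was not worked out. Counts this small were not read as a difference. Both IDR summits were near the upstream edge of the window. That of ain-1, a GW182 protein that binds Argonautes, lay at -918 bp, at rank 372, with ranks of 9686, 160 and 995 in replicates 1, 2 and 3. The summit of nhl-2, a TRIM-NHL cofactor of the silencing complex, lay at -946 bp, at rank 560. The best peaks of nhl-2 in replicates 1, 2 and 3 ranked 1702, 373 and 21072, with summits at -989, -950 and -112 bp. The next were cgh-1, a DEAD-box helicase, at pooled rank 804 and vig-1, a component of the silencing complex, at 1307. The Drosha gene drsh-1 and the Dicer gene dcr-1 had no pooled peak within 1000 bp, pash-1, the partner of Drosha, ranked 10203, and of the Argonaute genes alg-1 ranked 15815 while alg-2 and alg-5 had none.

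Of 10 genes of the heterochronic pathway, through which lin-4 and let-7 act, 1 had an IDR peak, beside the same 1.51%. It was lin-66, with a summit at -343 bp, at rank 254. The best peaks of lin-66 in replicates 1, 2 and 3 ranked 1876, 64 and 7824, with summits at -343, -406 and 38 bp. The lin-4 target lin-14 ranked 660 in the pooled list, just outside the IDR list, with its summit at -245 bp and ranks of 1943, 830 and 2169 in replicates 1, 2 and 3. The RNA-binding protein gene lin-28, which is in both lists and blocks the maturation of let-7, ranked 2371. The let-7 target lin-41 had no peak in reach in any of the 5 lists.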

How the data were processed

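Measured was CEY-2-GFP occupancy in whole L4 worms. The deposited lists hold a signal value and a summit offset for each peak, per the file headers of the accompanying descriptions. Those descriptions derive each list from a replicate's alignments and 1 further file, the pooled list from all 3 alignments, and the IDR list from the others; the replicate numbers of lists were read from them. For the peak caller and aligner, names and versions were not given in the sources used here. Of lists in builds ce10 and ce11 only the 5 of ce11 were used, whose peak ends fit the lengths of WBcel235. No conversion was made.

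Genes came from the Ensembl annotation and mature sequences from RefSeq coordinates on the same assembly. Coordinates are 1-based. Distances run from the annotated 5′ end of a gene to the summit, negative upstream. Windows were inclusive, and of several peaks the one with the highest signal was kept. Replicate summits were matched to IDR summits within 200 bp. Shares have exact Clopper-Pearson 95% intervals where printed. The lists hold 1 group and no read counts, so no test was made and all comparisons are counts beside those of other genes. The full lists include background regions.

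The genes named are those with an IDR peak, the 10 next by pooled signal, 6 families and 5 single genes by name, 2 pathway lists, and those high in all replicates. Genes high in 1 replicate, at the window's edge or sharing a seed were chosen after their values were seen. The members, lists and sequence words were chosen with earlier results of these data known. Alternatives varied the window, peaks, clusters and words. The lookup was tested on simulated data. Python 3.11.15, pandas 2.3.3 and scipy 1.17.1 were used.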

Additional observations from a re-analysis of the deposited data

How the results depend on the processing

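Within 250 bp 3 genes at 3 loci had an IDR peak, 1 clustered, 0 intronic and 2 intergenic (1.15%, beside 0.925% of all genes). Within 500 bp there were 7 genes, of which 2 were clustered and 2 intronic (2.68%, beside 1.31%, a ratio of 2.04), and 81 genes in the pooled list (31%, beside 29.9%). Within 2000 bp 7 clustered genes had one, among 18 genes in all (6.9%, beside 2.91%). With peaks at or above the median signal only, 3 genes at 3 loci remained, 1 each clustered, intronic and intergenic (1.15%, beside 0.903%). With the nearest start only, 4 genes at 4 loci remained, 1 clustered, 1 intronic and 2 intergenic (1.53%, beside 1.13%). Among the highest 611 peaks of replicate 1 alone there was 1 intronic gene and in replicate 2 alone 2, and in replicate 3 alone there were 7 genes, 1 clustered and 2 intergenic. Genes high in all 3 replicates numbered 2 to 3 when 1 replicate was left out and 7 with the highest 2000 peaks. GAGAGA was found within 200 bp of 8 of the 9 summits, beside 59% of all nuclear IDR summits, CACGTG within 50 bp of 1, beside 12.3%, and TGATAA within 50 bp of 0, beside 25.1%. GAGAGA within 50 bp was found at 4 of the 9 (44.4%), beside 27.3%, a wider gap than at 100 bp. With only 9 summits this gap was not read as a difference. The cause of these shifts was not tested beyond the smaller or larger sets they define. The other 37 alternative values stayed within 1.5 times the counts given, or within the interval of the share. They include 9 genes when each summit counts once and a ratio of 2.62 over nuclear genes only, both chosen after seeing the data. The IDR list cannot be rebuilt without a replicate from these files. No paired analysis was possible because there is 1 group. Unknown depth limits every value.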
